A study of Mus musculus with 36 samples.

Results

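The 39 Hox genes of the mouse were examined together with the 4 clusters in which they lie, out of 49943 annotated genes of which 21887 are protein-coding. They were chosen by symbol, as every protein-coding gene named Hoxa, Hoxb, Hoxc or Hoxd followed by a number. No measured value entered this rule, though earlier results of these data were known when it was set. The Hoxa cluster holds 11 of them and runs over 106 kb of chromosome 6 (chr6:52155367-52260880, GRCm38). The Hoxb cluster holds 10 over 174 kb (chr11:96194316-96368254), the Hoxc cluster 9 over 116 kb (chr15:102921131-103036856) and the Hoxd cluster 9 over 96.9 kb (chr2:74668225-74765142). Each cluster was taken from its first to its last Hox gene, 492 kb in all, of which 56.6% lies inside Hox genes.

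Male C57BL/6J mice aged 24 months, with no treatment named, gave 6 tissues with 2 samples of each. These were sperm, liver, heart, brain, bone marrow and the mononuclear cells of peripheral blood, PBMCs. Red cells had been lysed in the bone marrow, PBMCs came from a Ficoll gradient and sperm were the motile cells of the epididymal tail, whose DNA was extracted with another kit than that of the other 5 tissues. Each of these 12 DNA samples gave 1 library of single-strand breaks (SSBs) and 1 of apurinic or apyrimidinic sites (AP sites), which makes 24 libraries. The 12 RNA samples of the same tissues were not analysed here, so no expression value and no marker of tissue identity was used, and all mice were of the same age. The SSB libraries listed 225011 to 1041983 positions and the AP libraries 460719 to 963258, so the AP libraries were on the whole deeper. The labels do not say which tissues came from the same mouse, and p-values measure the spread between these libraries.

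Hox genes encode homeodomain transcription factors that give cells their position along the body axis and the limbs. Within a cluster the genes point the same way, and those with low numbers, at the 3' end, act towards the head while those with high numbers act towards the tail. In adult tissues much of each cluster is held silent by Polycomb proteins, and the clusters are rich in CpG islands. An SSB is a gap or nick in 1 strand of DNA, and an AP site is a sugar that has lost its base, by hydrolysis or as a step of base excision repair. Both arise in cells without any outside damage, and both were recorded here at single-nucleotide resolution with the strand on which they lay.

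To show what the data consist of, the promoter window with the most distinct lesion nucleotides, among those at hand, is printed for each cluster. The sequences are from RefSeq on GRCm38.p6 and give the 250 bases before the transcription start, out of windows that also hold the first 50 transcribed bases, 5' to 3' on the strand of the gene. Capitals mark the nucleotides at which an SSB or an AP site was listed, on either strand, in any of the 24 libraries. The Hoxa10 stretch (chr6:52240855-52241104, minus strand) carried 9 such nucleotides, the Hoxb4 stretch (chr11:96318017-96318266, plus strand) 5, the Hoxc4 stretch (chr15:103034145-103034394, plus strand) 7 and the Hoxd1 stretch (chr2:74762730-74762979, plus strand) 5.
Hoxa10: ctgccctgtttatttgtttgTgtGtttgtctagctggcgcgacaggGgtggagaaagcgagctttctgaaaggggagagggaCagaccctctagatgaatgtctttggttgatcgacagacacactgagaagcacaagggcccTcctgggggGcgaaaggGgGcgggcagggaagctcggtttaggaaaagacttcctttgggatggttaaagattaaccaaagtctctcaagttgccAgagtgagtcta
Hoxb4: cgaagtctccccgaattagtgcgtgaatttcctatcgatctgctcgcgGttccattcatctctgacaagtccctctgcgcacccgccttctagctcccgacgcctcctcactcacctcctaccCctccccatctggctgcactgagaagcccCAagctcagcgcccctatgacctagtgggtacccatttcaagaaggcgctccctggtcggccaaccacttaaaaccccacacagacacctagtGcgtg
Hoxc4: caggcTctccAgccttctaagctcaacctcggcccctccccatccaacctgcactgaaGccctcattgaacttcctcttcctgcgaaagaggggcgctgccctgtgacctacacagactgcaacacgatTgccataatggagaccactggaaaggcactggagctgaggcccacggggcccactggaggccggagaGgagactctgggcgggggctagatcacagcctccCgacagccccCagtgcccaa
Hoxd1: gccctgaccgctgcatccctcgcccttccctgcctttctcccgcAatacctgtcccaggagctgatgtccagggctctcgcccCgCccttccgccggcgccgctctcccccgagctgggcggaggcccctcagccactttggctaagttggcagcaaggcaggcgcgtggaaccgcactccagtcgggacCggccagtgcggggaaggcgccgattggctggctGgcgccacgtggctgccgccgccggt
In the Hoxa10 stretch, 5 of the lesions were SSBs and 4 were AP sites, and they came from sperm, liver, bone marrow, brain and heart. Each capital in that stretch stood for a lesion in a single library. The Hoxb4 stretch also lies inside the span of Hoxb3, and the Hoxc4 stretch inside the span of Hoxc4 itself. For the Hoxc cluster the Hoxc4 window was the only one at hand, so nothing was chosen there. Those of the Hoxb cluster were the windows of Hoxb1, Hoxb4 and Hoxb8. Levels are given as LPKM, the number of lesion positions divided by the length in kb and by the library's total in units of 1000000 positions. A position was counted once whatever its read count, on either strand.

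SSBs were denser inside the Hox clusters than around them. In all 12 SSB libraries the 4 clusters together lay above their flanks, the 500 kb on each side. The clusters reached 0.934 ± 0.0839 LPKM (SD, n = 12) and the flanks 0.541 ± 0.0273 LPKM. The log2 ratio of cluster to flank had a lowest value of 0.45, a median of 0.77 and a highest value of 1.08, with a mean of 0.79 ± 0.17, or 1.73-fold (adjusted p = 0.000610, exact permutation test). The p-value is from a two-sided exact sign-flip permutation test over the libraries, adjusted with Benjamini-Hochberg over the 5 regions and both assays, and 0.000488 is the smallest unadjusted value that 12 libraries can give. The test treats the 12 libraries as separate, although tissues may share a mouse.

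Over all bases, the Hoxa cluster had the highest mean ratio to its flanks for SSBs. Its log2 ratio ran from 0.72 in the first PBMC library through a median of 1.11 to 1.52 in the first bone marrow library, with a mean of 1.12 ± 0.22 (SD, n = 12), or 2.18-fold (adjusted p = 0.000610, exact permutation test). The 2 bone marrow libraries, at 1.52 and 1.42, were the highest of the 12. The Hoxc cluster followed the same direction in 12 of 12 libraries, from 0.41 through a median of 0.79 to 1.16, with a mean of 0.75 ± 0.22 or 1.68-fold (adjusted p = 0.000610, exact permutation test). The Hoxb cluster showed the smallest excess, from 0.16 through 0.52 to 0.75, with a mean of 0.50 ± 0.20 or 1.41-fold (adjusted p = 0.000610, exact permutation test). Over the alternatives the Hoxb value ran from 0.30, with 1 Mb flanks, to 0.73, always past the threshold. Inside Hox genes alone the SSB density of Hoxb was not the lowest. It was 1.06 ± 0.230 LPKM there, beside 1.06 ± 0.215 in Hoxa, 1.01 ± 0.153 in Hoxc and 0.971 ± 0.293 in Hoxd. The other bases of the Hoxb cluster had 0.608 ± 0.137 LPKM.

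The Hoxd cluster varied most between SSB libraries. Its log2 ratio had a mean of 0.88 ± 0.52 (SD, n = 12), or 1.84-fold, and was above 0 in 11 of 12 libraries (adjusted p = 0.00109, exact permutation test). The lowest value was -0.06, in the first PBMC library, where 11 positions fell in the cluster, and the highest was 1.80, in the second bone marrow library, with 29 positions. The flanks of the Hoxd cluster hold few genes, with 12.4% of their bases inside protein-coding genes against 67.9% of the cluster. Where the bases inside protein-coding genes alone were compared, the Hoxd log2 ratio rose to 1.54 for SSBs and 1.82 for AP sites. Hoxa had 1.26 and 1.02 on that basis, so the order of these clusters turned.

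AP sites showed an excess of the same direction and smaller size. The 4 clusters together had 0.811 ± 0.0820 LPKM (SD, n = 12) and their flanks 0.539 ± 0.0119 LPKM, a log2 ratio of 0.59 ± 0.15 or 1.5-fold, above 0 in 12 of 12 libraries (adjusted p = 0.000610, exact permutation test). The Hoxa ratio was 0.77 ± 0.23 with a median of 0.80 and values from 0.47 to 1.12. The Hoxd ratio was 0.74 ± 0.26 with a median of 0.84, and the Hoxc ratio 0.60 ± 0.23 with a median of 0.61. All 12 libraries were above 0 for these 3 clusters (adjusted p = 0.000610 for each, exact permutation test). The Hoxb ratio was again the smallest, at 0.32 ± 0.27 or 1.25-fold, with 11 of 12 libraries above 0 and the second sperm library at -0.10 (adjusted p = 0.00244, exact permutation test). Inside protein-coding genes alone it was 0.52.

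**Figure D1:**
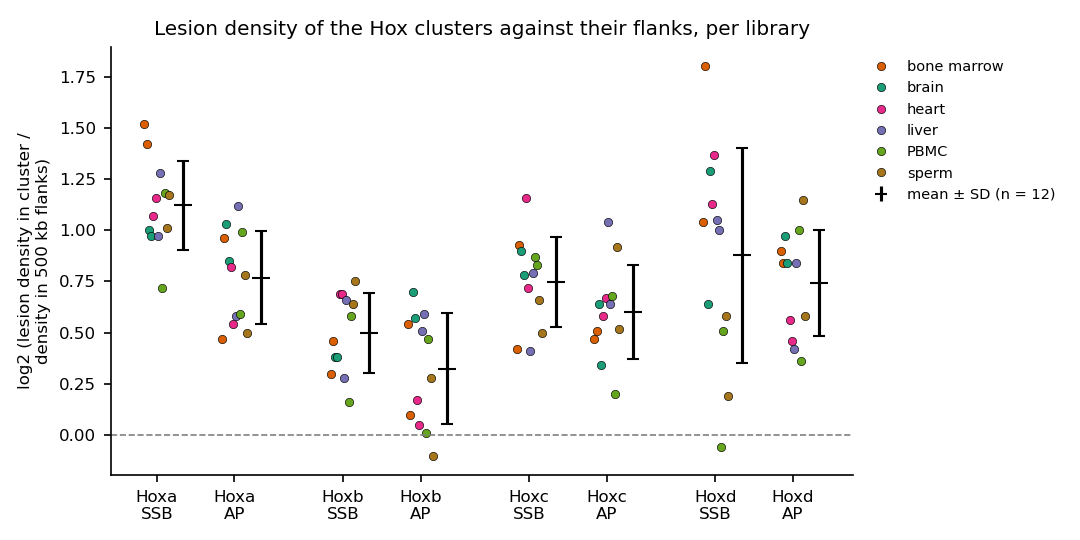
Log2 ratio of the lesion density in each Hox cluster to that in its 500 kb flanks (vertical axis), 1 point per library coloured by tissue, with the mean ± SD of the 12 libraries of each assay beside the points. All but 2 points lie above the dashed line at 0, Hoxa has the highest SSB mean (1.12) and the Hoxd SSB points spread from -0.06 to 1.80.

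The excess of the Hoxa cluster was larger for SSBs than for AP sites. The difference of the mean log2 ratios was 0.36 (adjusted p = 0.00390, two-sided permutation test of 12 against 12 libraries, adjusted over 5 regions). When the SSB and AP libraries of each DNA sample were paired, 11 of 12 samples had the higher ratio for SSBs (adjusted p = 0.00488, exact sign-flip test). For the 4 clusters together the difference was 0.20 (adjusted p = 0.0127, permutation test), with 8 of 12 pairs in that direction. Differences of 0.17 for Hoxb, 0.15 for Hoxc and 0.13 for Hoxd had adjusted p-values of 0.141, 0.154 and 0.433 by the same permutation test. The calls for Hoxa and for the 4 clusters were lost when libraries were thinned to 225011 positions (adjusted p = 0.0801 for each, permutation test), with 250 kb flanks (0.0807 for each) and inside protein-coding genes alone (0.163 for each).

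Against the genome as a whole the clusters were among the dense regions. The autosomes were tiled in 100 kb windows, and 23929 of them held at least 20 positions over the 24 libraries. With the libraries of an assay pooled, the Hoxa cluster had a higher ratio to its flanks than 99.54% of these windows for SSBs and 97.90% for AP sites. The corresponding shares were 99.27% and 97.71% for Hoxd, 97.35% and 94.70% for Hoxc, and 92.86% and 82.06% for Hoxb. In plain density the pooled clusters had 0.806 LPKM (Hoxb) to 1.11 LPKM (Hoxa) of SSBs, where the windows had a median of 0.393 LPKM and a 95th percentile of 0.781 LPKM. For AP sites Hoxb had 0.698 LPKM, below the 95th percentile of 0.776 LPKM, and was denser than 90.53% of windows, while the other 3 clusters were above that percentile. These shares are a description of the pooled libraries and carry no test.

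The type I and type II keratin clusters served as a comparison, since they too are long arrays of related genes on chromosomes 11 and 15. Keratins are the intermediate filament proteins of epithelia and hair. The 2 keratin clusters together lay below their flanks for SSBs, with a log2 ratio of -0.33 ± 0.20 (SD, n = 12), and near them for AP sites, at -0.08 ± 0.08. The 2 keratin clusters differed, since type I was below its flanks in all 12 libraries of each assay, at -0.58 ± 0.27 for SSBs and -0.31 ± 0.15 for AP sites. Type II was at -0.02 ± 0.22 for SSBs, with 7 of 12 libraries above its flanks, and at 0.21 ± 0.10 for AP sites, with 12 of 12 above. The Hox ratio exceeded the joint keratin ratio by 1.12 ± 0.31 for SSBs and by 0.67 ± 0.17 for AP sites, in 12 of 12 libraries each (p = 0.000488, exact sign-flip test). Inside protein-coding genes alone the excess came to 0.76 (SSBs) and 0.38 (AP sites).

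Along the clusters the density was uneven. Each cluster was cut into 10 equal bins and its flanks into bins of 25 kb. The cluster bins were shorter, at 9.69 to 17.4 kb. Their densities scatter more by counting, so their extremes are not on an equal footing with those of flank bins. All 10 bins of Hoxa, Hoxc and Hoxd lay above the median flank bin for SSBs, as did 8 of 10 bins of Hoxb. The densest SSB bin of Hoxa, 10.6 kb with Hoxa7 and parts of Hoxa3 and Hoxa6, had 1.56 ± 0.706 LPKM (SD, n = 12). No bin of the Hoxa flanks exceeded 0.789 LPKM. The densest Hoxc bin, inside Hoxc4, had 1.36 ± 0.636 LPKM, and the densest Hoxb bin, which spans Hoxb5 and parts of Hoxb3 and Hoxb6, had 1.30 ± 0.593 LPKM, while the highest flank bin of Hoxb reached 1.30 LPKM as well. In the Hoxd cluster the values were flatter, from 0.643 ± 0.376 LPKM near Hoxd1 to 1.04 ± 0.713 LPKM at Hoxd12 and Hoxd13.

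**Figure D2:**
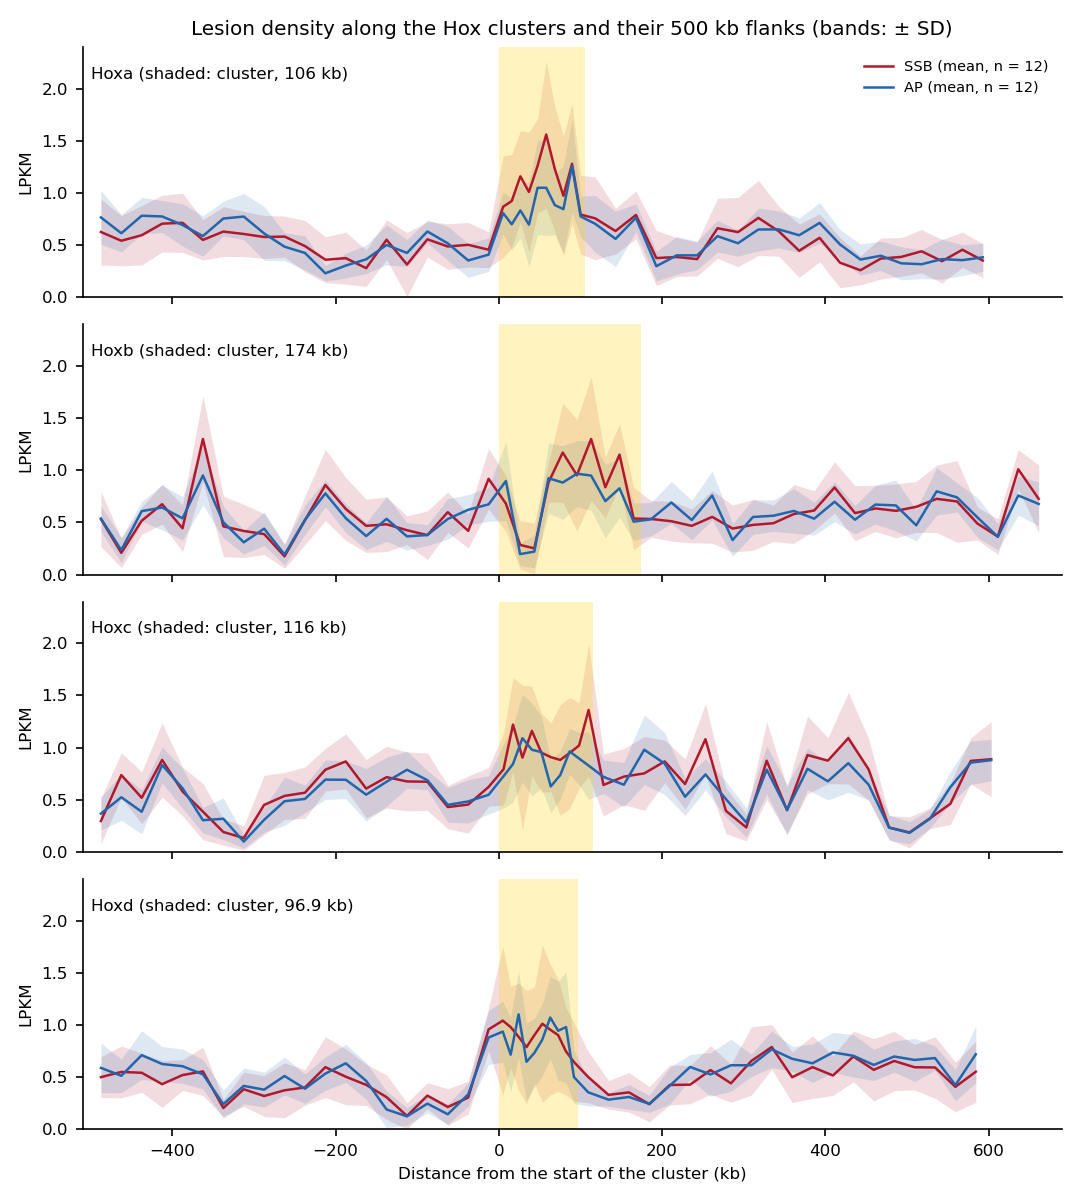
Lesion density in LPKM (vertical axis) against distance in kb from the start of each cluster (horizontal axis), as the mean of 12 SSB (red) and 12 AP (blue) libraries with bands of ± SD; the shaded part is the cluster. SSB density peaks at 1.56 LPKM within Hoxa and is lowest, at 0.251 LPKM, in 1 of the 3 Hoxb bins without Hox genes, another of which has 0.883 LPKM.

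The least dense bins of any cluster lay in the long interval of Hoxb between Hoxb13 and Hoxb9, where 3 bins of 17.4 kb hold no Hox gene. The first 2 of them, on the side of Hoxb13, had 0.284 ± 0.233 and 0.251 ± 0.24 LPKM of SSBs and 0.196 ± 0.109 and 0.220 ± 0.155 LPKM of AP sites, below the median flank bin of 0.526 and 0.540 LPKM. The third, next to Hoxb9, was above it with 0.883 ± 0.189 LPKM of SSBs and 0.924 ± 0.337 LPKM of AP sites, so the low density did not extend over the whole interval without Hox genes. Over the 4 clusters, Hox gene spans exceeded the remaining bases by a log2 ratio of 0.34 ± 0.29 for SSBs (p = 0.00537, exact sign-flip test) and 0.25 ± 0.15 for AP sites (p = 0.000977, exact sign-flip test), in 11 of 12 libraries each. With the Hoxb cluster not included, an alternative added after seeing the data, the ratios were 0.04 ± 0.38 (p = 0.771) and 0.03 ± 0.21 (p = 0.650) by the same exact test. By cluster the SSB and AP ratios were 0.80 ± 0.54 and 0.58 ± 0.39 in Hoxb, and 0.44 ± 0.59 and 0.30 ± 0.42 in Hoxd, where 10 of 12 libraries of each assay were above 0. They were -0.15 ± 0.74 and 0.02 ± 0.56 in Hoxa and -0.01 ± 0.42 and -0.18 ± 0.19 in Hoxc.

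No difference between the anterior and the posterior genes passed the test. The anterior genes (paralogue groups 1 to 4) had 1.05 ± 0.149 LPKM of SSBs (SD, n = 12), the middle genes (5 to 8) 1.14 ± 0.276 LPKM and the posterior genes (9 to 13) 0.959 ± 0.221 LPKM. Hoxa5 and Hoxa6 lie inside the span of Hoxa3, so their bases count in both the anterior and the middle group. The anterior to posterior log2 ratio was 0.14 ± 0.30 for SSBs (p = 0.125, exact sign-flip test) and -0.05 ± 0.32 for AP sites (p = 0.591). Leaving out the first sperm library brought the SSB value to 0.21 (p = 0.00879, exact sign-flip test).

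No difference between tissues in the cluster ratios passed the test. An F ratio between and within tissues was compared with all ways of pairing the 12 libraries of an assay, adjusted over 10 tests. The smallest p-value was that of the Hoxd cluster for SSBs (F = 3.51, p = 0.0793, adjusted p = 0.650, exact permutation test). In that cluster the 2 PBMC libraries had log2 ratios of -0.06 and 0.51 and the 2 sperm libraries 0.58 and 0.19. The other 8 SSB libraries ran from 0.64 to 1.80, above those of PBMCs and sperm. This grouping was read from the values and was not tested. The span of Hoxd3 alone holds 214 of the 505 SSB positions of the cluster. AP sites in the same cluster did not share this order, with sperm at 1.15 and 0.58 and PBMCs at 1.0 and 0.36.

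The single genes were covered thinly. The median Hox gene held 2.08 SSB positions and 2.67 AP positions per library, and 21.2% of the 468 gene and library pairs had no SSB position. The genes with a position in every SSB library were Hoxa3, Hoxb3, Hoxc4, Hoxd3, Hoxd4, Hoxd10 and Hoxd11. Hoxa3 spans Hoxa4, Hoxa5 and Hoxa6, Hoxb3 spans Hoxb4, Hoxd3 spans Hoxd4, and Hoxd10 overlaps Hoxd11, and a position in such a stretch was counted for each gene.

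Most Hox genes were denser in lesions than the typical gene. Their median was 1.02 LPKM of SSBs, with a range from 0.375 LPKM in Hoxa13 to 1.90 LPKM in Hoxa5, against a median of 0.616 LPKM over all protein-coding genes. For AP sites the median was 0.824 LPKM, from 0.458 LPKM in Hoxd1 to 1.41 LPKM in Hoxd12, against 0.617 LPKM. In each assay 35 of 39 lay above the protein-coding median. Compared with its own 500 kb flanks in the pooled libraries, 36 of 39 Hox genes were denser for SSBs and 37 of 39 for AP sites, where 74.7% of all protein-coding genes were denser for SSBs and 74.7% for AP sites. The median log2 ratio of gene to flank was 0.90 for SSBs and 0.54 for AP sites over the Hox genes, and 0.43 and 0.41 over all protein-coding genes. The flank of a Hox gene includes the rest of its cluster, so the genes of a cluster are not independent of each other. Hoxa13, Hoxd8 and Hoxd13 were the Hox genes below their flanks for SSBs, at -0.48, -0.14 and -0.16, and Hoxb4 and Hoxd8 were those for AP sites, at -0.16 and -0.10.

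**Figure D3:**
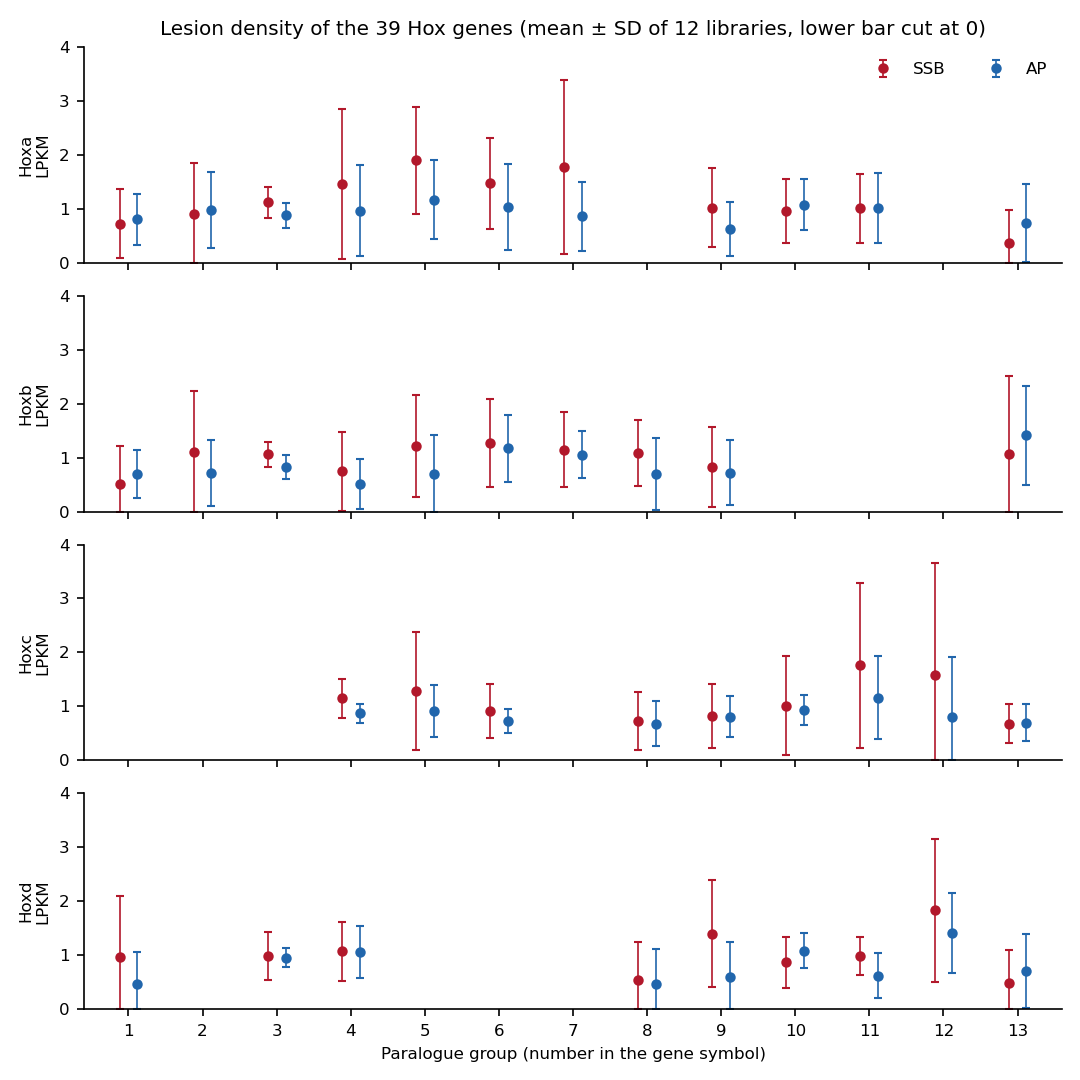
Lesion density in LPKM (vertical axis) of each of the 39 Hox genes by paralogue group (horizontal axis), 1 panel per cluster, as the mean ± SD of the 12 SSB (red) and 12 AP (blue) libraries. Long genes such as Hoxa3 (1.12 ± 0.288 for SSBs) have short error bars, while Hoxc12 and Hoxd12 have wide ones.

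Within each cluster the densest and the sparsest gene were named, pooled over the 24 libraries, as a description. In Hoxa the densest was Hoxa5 (chr6:52201754-52204587), a gene of lung and cervical spine development, with 56 positions or 19.8 per kb (exact Poisson 95% interval 14.9 to 25.7). The sparsest there was Hoxa13 (chr6:52258853-52260880), which acts in the distal limb and the urogenital tract, with 18 positions or 8.88 per kb (5.26 to 14). In Hoxd the densest was Hoxd12 (chr2:74675013-74677705), a limb gene, with 21.2 per kb (16.0 to 27.4), and the sparsest Hoxd8 (chr2:74704615-74707933) with 6.63 per kb (4.15 to 10.0). In Hoxc the densest was Hoxc11 with 20.7 per kb (15.1 to 27.7) and the sparsest Hoxc13, known for hair and nail formation, with 9.76 per kb (7.68 to 12.2). The intervals of the extreme genes do not overlap in these 3 clusters. In Hoxb the densest was Hoxb13, a gene of the prostate and tail region, with 17.9 per kb (12.8 to 24.2), and the sparsest Hoxb4, known from blood stem cells, with 9.49 per kb (6.49 to 13.4), and these intervals overlap. By mean LPKM over the 24 libraries, which weights them equally, Hoxb1 was sparser than Hoxb4 (0.606 against 0.629 LPKM), while the genes named for the other 3 clusters were the extremes on that scale too. In single assays some orders turned. For SSBs Hoxb1 (0.515 LPKM) was sparser than Hoxb4 (0.743), and Hoxd13 (0.481) than Hoxd8 (0.540). Hoxb13 (1.07 LPKM of SSBs) was exceeded by Hoxb6 (1.27), Hoxb5 (1.22), Hoxb7 (1.15), Hoxb2 (1.10) and Hoxb8 (1.08). For AP sites Hoxa9 (0.620 LPKM) was sparser than Hoxa13 (0.739), Hoxc8 (0.682) than Hoxc13 (0.698), and Hoxd1 (0.458) than Hoxd8 (0.471). Hoxa5, Hoxc11 and Hoxd12 were the densest of their clusters in each assay. The intervals cover counting error only, and the genes were picked as extremes. By library the values varied widely, with lowest, median and highest SSB densities of 0, 1.73 and 3.46 LPKM in Hoxa5 and 0, 0 and 1.61 LPKM in Hoxa13. In Hoxd12 they were 0, 1.66 and 4.95 LPKM and in Hoxd8 0, 0.145 and 1.97 LPKM. Each of the 4 densest genes had at least 1 library without any SSB position.

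No Hox gene passed the test between tissues after adjustment. By edgeR's quasi-likelihood test over all genes, 0 of 39 Hox genes were called for SSBs at an adjusted p under 0.05 and 1 of 39 at an unadjusted p under 0.05, against 48 of 38486 genes called (0.125%) and 1867 of 38486 at an unadjusted p under 0.05. DESeq2 called 0 of 39 as well, and 4 genes in all. For AP sites edgeR called 0 of 39 Hox genes and 0 of 41374 genes (0%), with 1 Hox gene and 1219 genes at an unadjusted p under 0.05, and DESeq2 called 0 genes.

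The gene at an unadjusted p under 0.05 for SSBs was Hoxd3 (chr2:74711993-74748271), an anterior gene of the neck and hindbrain region. Its SSB density was 1.14 and 1.75 LPKM in the bone marrow libraries, 0.991 and 1.19 in brain, 1.24 and 1.32 in heart, and 1.30 and 1.06 in liver. It was 0.123 and 0.721 LPKM in PBMCs and 0.515 and 0.495 in sperm. PBMCs and sperm were thus below all libraries of the other 4 tissues. This grouping was read from the values, and how many genes separate tissues in such a way was not counted. The span of Hoxd3 holds 214 of the 505 SSB positions of the Hoxd cluster. The order of the Hoxd cluster ratios was thus not a separate observation. The edgeR test gave an adjusted p of 0.153, and over its alternatives the adjusted p ranged from 0.0643 to 1.0. The counts behind these values were small, with 1 and 8 positions in PBMCs, 7 and 5 in sperm, and 13 to 50 elsewhere. AP sites of Hoxd3 ranged from 0.623 LPKM in a liver library to 1.26 LPKM in a sperm library and differed between tissues with an adjusted p of 1.0 by edgeR. Whether the tissue pattern differs between the assays was not tested. For sperm, the tissue and the DNA extraction kit cannot be told apart.

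**Figure D4:**
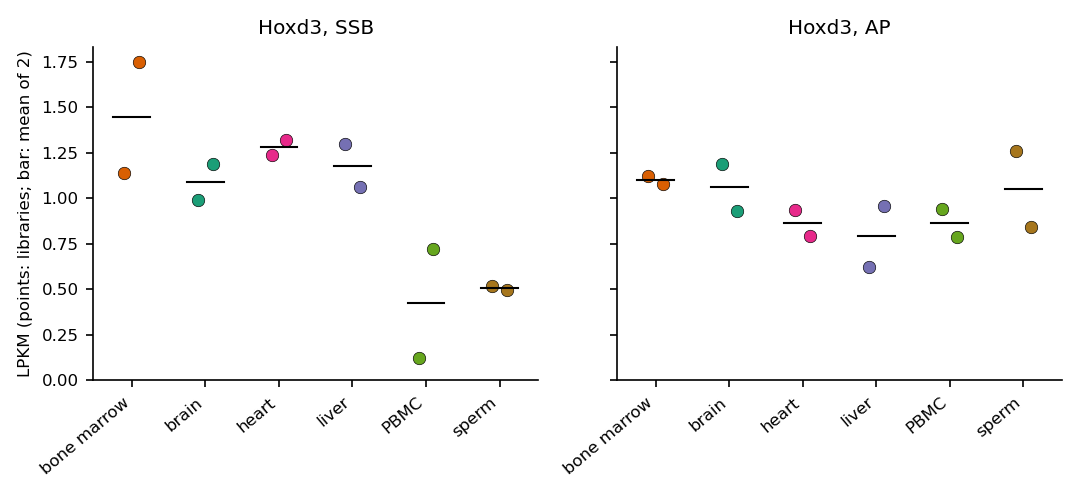
Lesion density of Hoxd3 in LPKM (vertical axis) by tissue (horizontal axis), for SSBs on the left and AP sites on the right, with 1 point per library and a bar at the mean of the 2 libraries. SSB values in PBMCs and sperm lie between 0.123 and 0.721, below the 0.991 to 1.75 of the other tissues, and AP values do not show this order.

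The Hox genes with the next smallest p-values across tissues for SSBs were Hoxa10, Hoxb6, Hoxb13 and Hoxa2, each with an adjusted p of 0.992 by edgeR. Hoxa10, a posterior gene of the uterus and the blood lineages, had 0 and 1 SSB positions in PBMCs and 5 and 11 in liver. Hoxb13 had 4 and 2 in sperm and at most 3 elsewhere. Hoxb6 had 7 and 6 in sperm, 5 and 15 in heart and 2 and 0 in PBMCs, and Hoxa2, a hindbrain gene, had 0 in all libraries of bone marrow and heart and 2 and 2 in liver. For AP sites the smallest p-values were those of Hoxb9, Hoxb8, Hoxa13, Hoxc12 and Hoxb6, each with an adjusted p of 1.0 by edgeR. Hoxb9, a posterior gene of the thorax, had 0 AP positions in both liver libraries, 3 and 8 in the brain libraries and 1 and 6 in PBMCs. Hoxa13 had 0 in all liver and PBMC libraries and 2 and 2 in sperm.

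Between the assays no single Hox gene was called. By edgeR with tissue as a term, 0 of 39 Hox genes were higher in SSB libraries and 0 of 39 higher in AP libraries at an adjusted p under 0.05, against 93 of 41210 genes higher in SSBs (0.226%) and 326 higher in AP sites (0.791%). With library totals in place of TMM factors the split over all genes was 143 to 74, and the median of all genes moved from -0.08 to 0.01 on the log2 scale. At an unadjusted p under 0.05, 2 Hox genes were higher in SSBs and 0 in AP sites, beside 1490 and 3289 of all 41210 genes, and DESeq2 called 0 of the 4 Hox genes for which it gave an adjusted p. Of the 39 Hox genes 27 had a higher SSB estimate, where 17153 of 41210 genes did, and their median log2 difference was 0.24 against -0.08 over all genes. With library totals alone the counts were 31 of 39 and 20901 of 41210, and the medians 0.32 and 0.01.

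Hoxb3 and Hoxa3, paralogues that act in the hindbrain and pharyngeal arches, were the genes with the smallest p-values between the assays. Hoxb3 (chr11:96307101-96347930) had 0.604, 1.10 and 1.35 LPKM of SSBs as its lowest, median and highest values, and 0.466, 0.838 and 1.18 LPKM of AP sites. The groups overlapped, and the log2 difference was 0.30 (adjusted p = 0.329, edgeR). Hoxa3 (chr6:52169059-52213067) had 0.707, 1.01 and 1.53 LPKM of SSBs and 0.483, 0.853 and 1.2 LPKM of AP sites, again with overlap. Its log2 difference was 0.27 (adjusted p = 0.351, edgeR). The next were Hoxd9 with a log2 difference of 1.0, Hoxd11 with 0.59 and Hoxd1 with 0.98, with adjusted p-values of 0.447, 0.524 and 0.538 by edgeR. The Hoxd1 value rested on 14 SSB and 10 AP positions in all, and without the second replicate of each tissue it was -0.47. Without that replicate the Hoxd11 value was 0.06 and the Hoxb3 value 0.16, and without the first replicate the Hoxd11 value was 1.12.

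No departure from an even split between the strands of Hox genes passed the test. For the 22 Hox genes whose strand was listed, 48.5% ± 5.80 of SSB positions (SD, n = 12) lay on the strand of the gene (p = 0.387 against an even split, exact sign-flip test), and 46.9% ± 5.97 of AP positions (p = 0.102). Without the second heart library the AP share was 45.8% (p = 0.0195, exact sign-flip test). Over all protein-coding genes with a listed strand, 54.2% ± 1.08 of SSB positions lay on the strand of the gene, more than 50% in 12 of 12 libraries, and 50.4% ± 0.525 of AP positions. In the same libraries the Hox share of SSBs was lower by 5.70 ± 5.55 percentage points, in 10 of 12 libraries (p = 0.00635, exact sign-flip test, a comparison added after the values were seen). With the strand of the cluster given to all 39 genes the Hox share was 49.5% ± 4.27, and lower than that of all genes in 12 of 12 libraries (p = 0.000488, exact sign-flip test). For AP sites the share of the 22 genes was lower in 9 of 12 libraries (p = 0.0654, exact sign-flip test), and with the strand of the cluster also in 9 of 12 (p = 0.111). When the libraries were thinned to equal depth, by 1 random draw each, the Hox shares were 50.2% for SSBs and 51.8% for AP sites.

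Few lesion nucleotides recurred between libraries. In the 4 clusters the 12 SSB libraries listed 2552 distinct nucleotides, of which 18 (0.705%) were listed in 2 or more libraries, and the AP libraries listed 3462, of which 50 did so (1.44%). The shares in the flanks were 0.577% and 1.40%, and over the genome 0.519% and 1.45%. The most libraries that shared a nucleotide in a Hox cluster was 4, in Hoxc, among the SSB libraries.

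The 24 promoter windows of 22 Hox genes in the RefSeq table, of 300 bases each including the first 50 of the transcript, were richer in CpG than most. They held a median of 14.5 CpG dinucleotides (range 4 to 45), against a median of 7 over 32851 windows. When all windows were ranked by CpG and split into 4 groups of equal size, 0, 4, 12 and 8 of the Hox windows fell in the groups from lowest to highest. The Hox windows held 67 SSB positions, or 1.69 LPKM, and 51 AP positions, or 0.803 LPKM. Over all windows the densities were 1.24 LPKM of SSBs and 0.806 LPKM of AP sites. SSB density was 0.549 LPKM in the group with the fewest CpG, then 0.897 and 1.67, and 1.82 in the group with the most, and that of the Hox windows lay between the upper 2 groups. For AP sites the 4 groups had 0.579, 0.846, 1.02 and 0.784 LPKM. Hoxa13 and Hoxd13, whose windows had the most CpG dinucleotides among Hox genes (45 and 37), held 0 SSB positions and 1 AP position each.

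The bases at the listed nucleotides are given as a description, with no test. On the listed strand, 38.5% of AP positions in all promoter windows were at A and 36.2% at G, and in the Hox windows 27.5% and 45.1% of 51 positions were. For SSBs 39% were at C and 35.5% at G over all windows, and 41.8% and 41.8% of 67 in the Hox windows, while the windows themselves hold 28.8% of each of C and G in Hox genes. The base before the listed one was C in 55.6% of SSB positions over all windows and in 52.2% in Hox windows. The offset between the listed nucleotide and the lesion itself is not given in the sources used here.

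Genes that work with or on the Hox clusters were counted as 4 lists. The 9 TALE homeodomain cofactors (the Pbx, Meis and Pknox genes), which bind DNA together with Hox proteins, had a median of 0.660 LPKM of SSBs and 0.657 LPKM of AP sites. The 19 Polycomb genes, whose products keep Hox genes silent, had 0.718 and 0.649 LPKM, and the 12 Trithorax genes, whose products keep them active, 0.547 and 0.616 LPKM. The 8 ParaHox and Evx genes, the nearest relatives of the Hox genes, had 0.9 and 0.910 LPKM, and 7 of 8 and 8 of 8 were denser than their flanks. The corresponding counts for SSBs and AP sites were 6 and 6 of 9 TALE genes, 15 and 12 of 19 Polycomb genes and 6 and 7 of 12 Trithorax genes, beside 74.7% of all protein-coding genes in each assay. In none of the 4 lists was a gene called across tissues by edgeR in either assay, with 2 Polycomb genes and 1 Trithorax gene at an unadjusted p under 0.05 for SSBs and 0 of either for AP sites. Over all protein-coding genes tested these numbers were 1433 of 20486 and 818 of 20983. DESeq2 called 0 genes of these lists across tissues in either assay.

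Between the assays 2 genes of these lists were called by edgeR, both Trithorax members, and DESeq2 called Kdm6b of them. Of all protein-coding genes tested, edgeR called 343 of 20993 between the assays, 70 of them higher in SSBs and 273 higher in AP sites. Kdm6b, a demethylase of the Polycomb histone mark, was higher in SSBs, with 1.65 ± 0.678 LPKM (SD, n = 12) against 0.860 ± 0.251 LPKM of AP sites (log2 difference 0.80, adjusted p = 0.000603, edgeR). Kmt2a, a histone methyltransferase that maintains Hox expression, was higher in AP sites, with 0.733 ± 0.149 LPKM against 0.565 ± 0.152 LPKM of SSBs (log2 difference -0.52, adjusted p = 0.00542, edgeR). Each of these genes had overlapping ranges between the assays, from 0.366 to 2.79 against 0.514 to 1.19 LPKM for Kdm6b and from 0.278 to 0.828 against 0.475 to 0.931 LPKM for Kmt2a.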

How the data were processed

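Each file listed the single-nucleotide positions of SSBs or AP sites of 1 library, with strand and the raw read count per position, as deposited by the authors, who had mapped breaks with their own code. The build was mm10 (GRCm38) per the labels, and the aligner is not given in the sources used here. The counts were not normalized. Positions were counted once each over whole gene spans and clusters and expressed as LPKM, with 0.5 position added before log2 ratios of regions. Exons were not used here.

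Cluster ratios were tested with exact sign-flip permutation over libraries, assays with a permutation test of 100000 resamples, and tissues with an exact permutation of pairings. Positions per gene were tested over all genes with a position in at least 20% of libraries by edgeR's quasi-likelihood test (edgeR 4.0.16, R 4.3.3, TMM factors 0.941 to 1.17, Benjamini-Hochberg, threshold 0.05), with DESeq2 1.42.0 as an alternative. Counting, permutation and plotting ran under Python 3.11.15 with scipy 1.17.1. The edgeR step was tested on simulated data and recovered 200 of 200 genes changed 4-fold in each comparison. For the assays there were 9 false calls over 40843 genes, and for the tissues 5 over 38666 genes. The changed genes were drawn from those expected to hold at least 20 positions per library on average before the change, and all changes were increases. The noise of the simulated counts was set to the same value for all genes and was not estimated from these libraries. Recovery and false calls at the noise of the real data were therefore not tested. The median Hox gene held 2.08 SSB and 2.67 AP positions, so recovery at that depth was not tested.

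Named were, in each cluster, the genes with the most and the fewest positions per kb, the 5 Hox genes with the smallest p in each edgeR test, any gene past the threshold, and per cluster the promoter window with the most distinct positions. The members and the lists were chosen with earlier results of these data known. The labels give SSB and AP libraries of a DNA sample the same code, which pairs them. Their deviations from the tissue means correlated by -0.00499 to 0.0181 over 7406 genes, so the pairing rests on the labels alone. In the same check, libraries of 2 tissues with the same number were compared over 15 pairs of tissues. They correlated by -0.0156 to 0.0220 for SSBs and by -0.161 to 0.0891 for AP sites. Libraries of the same group shared 0.0958 to 0.396% of nucleotides. Of all positions, 0.140 to 1.23% had a count over 1. Intervals cover counting error only.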

Additional observations from a re-analysis of the deposited data

Results flagged for a closer look

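The excess of the Hoxa cluster over its flanks differed between the assays by 0.36 on the log2 scale, larger for SSBs than for AP sites (adjusted p = 0.00390, permutation test). For the 4 Hox clusters together the difference was 0.20 in the same direction (adjusted p = 0.0127, permutation test). Both were picked out because a test of the difference between the assays passed its threshold. The SSB libraries were on the whole shallower than the AP libraries, and at equal depth the differences were 0.28 and 0.22 with an adjusted p of 0.0801 for each by the same permutation test.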

How the results depend on the processing

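Of 357 values under alternatives other than leaving out a library, 339 kept their side of the threshold. With a library or replicate left out, 624 of 640 did so. Counts had to stay within 1.5 times. Direction had to be kept too, save in the tests across tissues, which have none. A single gene without an adjusted p in an alternative was counted as kept. Many values were not called to begin with, so these shares do not measure how stable the sizes were. The F ratio of Hoxb across tissues for SSBs, 1.60, ran from 0.932 to 6.32 and was counted as kept. The SSB minus AP difference of the Hoxa cluster lost its call with 250 kb flanks (0.24), at equal depth (0.28) and inside protein-coding genes (0.24), and that of the 4 clusters together likewise (0.16, 0.22 and 0.14). The Hoxd difference turned to -0.01 with 250 kb flanks and to -0.28 inside protein-coding genes. Hox gene spans against the rest lost their call with Hoxb not included (0.04 for SSBs and 0.03 for AP sites, chosen after seeing the data). The strand share moved to the other side of 50% at equal depth (50.2% for SSBs, 51.8% for AP sites). With a library left out, the anterior to posterior SSB ratio ran from 0.11 to 0.21, past the threshold without the first sperm library, and the AP strand share from 45.8 to 47.5%, past it without the second heart library. The Hoxd1 difference was 1.66 without replicate 1 and -0.47 without replicate 2, that of Hoxd11 1.12 and 0.06, and that of Hoxb3 0.35 and 0.16. With the DNA sample as replicate block the Hoxa difference was 0.36 and that of the 4 clusters 0.20, and pairing changed no call. No Hox gene was called by edgeR or DESeq2 under any alternative. Over all genes, SSB calls across tissues fell from 48 to 15 with library totals alone, 16 with summed counts and 4 with DESeq2, and the lowest number with a library left out was 4, without the first bone marrow library. AP calls across tissues went from 0 to 2 without the second liver library. Calls between the assays fell to 11 and 12 (higher in SSB and AP) without replicate 1 and to 4 and 10 without replicate 2, and DESeq2 called 68 and 88. The cause of these changes was not tested. At 2.08 SSB positions in the median Hox gene and library, depth limits every statement on a single gene.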
